A study of Mus musculus with 6 samples.

Results

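Interferon-responding melanoma cells are described here as the cells of 6 mouse tumors with the highest joint expression of Ifit1, Ifit2, Ifit3, Isg15, Oas1a, Oasl2, Rsad2, and Bst2. The score of a cell was the mean over these 8 genes of log2(TPM + 1), where TPM is the abundance of transcripts scaled by transcript length and to the same total in every cell. A gene was detected in a cell if its TPM was above 0, and 507 of the 602 cells had over 1000 genes detected and a mitochondrial share of TPM under 10%. The 76 cells in the top 15% of the score over all tumors together were the members, and the other 431 retained cells were compared with them within each tumor. The tumors came from C57BL/6 mice injected under the skin with 50000 cells and were harvested on day 15, and full-length libraries were made with Smart-seq from sorted CD45-negative cells, a gate that leaves out most immune cells. B16 is the B16-F10 mouse melanoma line, grown here without treatment, and B16PD1 is the same line in mice given 200 μg of anti-PD1, an antibody against the checkpoint receptor PD1, on days 5, 8, and 11. R499 was also untreated and is a single resistant line derived from a B16 tumor that relapsed after radiation and anti-CTLA4. Each condition had 2 mice, named here by the number in the cell names as B16_007, B16_008, B16PD1_000, B16PD1_002, R499_015, and R499_016, and the ages of the mice were not given in the sources used here.

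Interferons are secreted proteins that cells make when they sense viral or displaced nucleic acid, and that lymphocytes release in inflamed tissue. Type I interferons act through Stat2 and Irf9 on the interferon-stimulated response element, and interferon gamma acts through another site, so the target genes of both only partly overlap. The products block viral replication, tag proteins with Isg15, and raise the display of peptides on MHC class I, by which tumor cells are seen by T cells.

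The 8 genes of the score have known roles in this response. Ifit1, Ifit2, and Ifit3 bind foreign RNA or the complexes that translate it, and lie in 1 cluster on chromosome 19 of GRCm38 (34640871 to 34650009, 34550694 to 34576419, and 34583531 to 34588731). Isg15 is a ubiquitin-like modifier, Oas1a belongs to the 2'-5' oligoadenylate synthetases that start RNA decay, and Oasl2 is a relative of that family. Rsad2 encodes viperin, which makes a chain-terminating nucleotide, and Bst2 encodes tetherin, which holds virus particles at the cell surface. The proximal promoters of these genes are shown as background. The genes were scored for their known roles in this response, so a motif in their promoters is no evidence about the cells. The motif GAAANNGAAA, the core of the interferon-stimulated response element, was searched on both strands in the RefSeq promoters of GRCm38.p6, from 250 bases before to 50 bases after each start, and its matches, which may overlap, are in capitals below. Stretches of Ifit1 at chr19:34640760-34640838 (plus strand), Ifit3 at chr19:34583348-34583441 (plus strand), Isg15 at chr4:156200850-156200921 (minus strand), Oas1a at chr5:120907526-120907570 (minus strand), Rsad2 at chr12:26456538-26456597 (minus strand), and Bst2 at chr8:71537562-71537627 (minus strand) read as follows, each on the strand of its gene.
Ifit1: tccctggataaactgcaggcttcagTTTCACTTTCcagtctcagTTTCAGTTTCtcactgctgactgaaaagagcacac
Ifit3: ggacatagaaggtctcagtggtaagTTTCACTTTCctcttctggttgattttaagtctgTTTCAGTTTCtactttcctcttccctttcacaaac
Isg15: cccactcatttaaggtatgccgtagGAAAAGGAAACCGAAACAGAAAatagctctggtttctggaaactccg
Oas1a: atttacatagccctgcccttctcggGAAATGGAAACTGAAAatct
Rsad2: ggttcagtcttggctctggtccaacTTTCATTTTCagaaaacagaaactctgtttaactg
Bst2: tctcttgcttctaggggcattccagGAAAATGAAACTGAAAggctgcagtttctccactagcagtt
The motif was present in 6 of the 8 promoters and absent from those of Ifit2 and Oasl2. It occurred in 3.99% of all 27025 promoters and in 3.51% of the 8700 promoters of genes tested below. A match is a description of the sequence and not a site of binding.

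Members were found in every tumor but unevenly. They made up 25 of 91 retained cells in B16_007 (27.5%, 95% Wilson interval 19.4% to 37.4%), 2 of 86 in B16_008 (2.33%, 0.640% to 8.09%), 10 of 86 in B16PD1_000 (11.6%, 6.44% to 20.1%), 16 of 88 in B16PD1_002 (18.2%, 11.5% to 27.5%), 14 of 81 in R499_015 (17.3%, 10.6% to 26.9%), and 9 of 75 in R499_016 (12%, 6.44% to 21.3%). The intervals cover counting error only, and those of the 2 untreated B16 tumors did not overlap. The mean share was 14.9 ± 17.8% in B16, 14.9 ± 4.63% in B16PD1, and 14.6 ± 3.74% in R499 (SD, n = 2 tumors each). The conditions differed by -0.257 percentage points in R499 minus B16, by 0.00581 in B16PD1 minus B16, and by -0.263 in R499 minus B16PD1 (exact permutation test, two-sided, p = 1 in each, where 2 tumors against 2 cannot go below 0.333). The spread between the B16 tumors was larger than any difference between conditions.

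**Figure D1:**
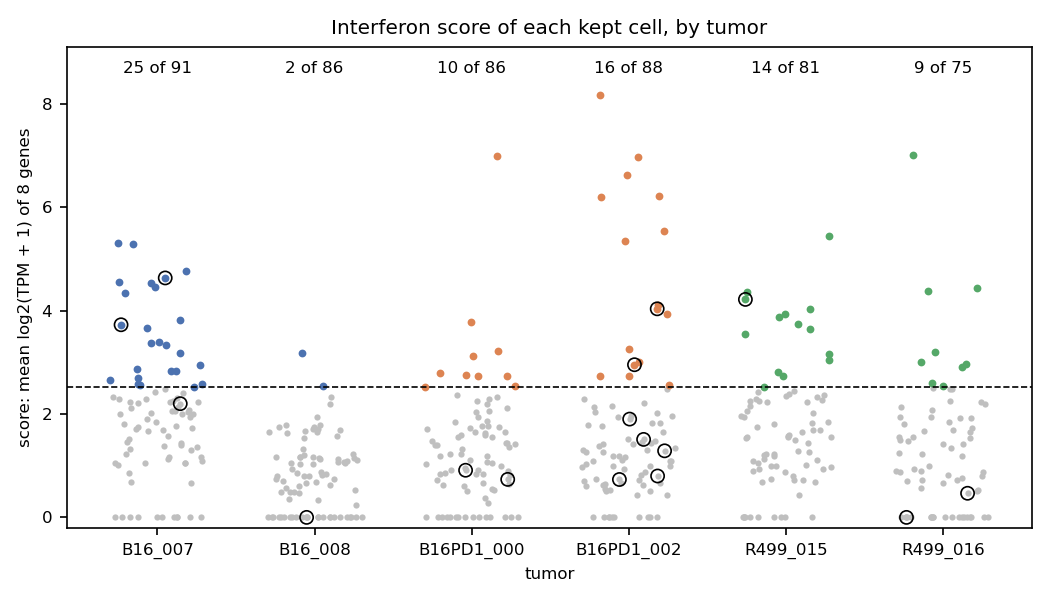
Interferon score of each of the 507 retained cells, by tumor. The y axis is the mean log2(TPM + 1) of the 8 score genes, the dashed line is the score of the last member (2.52), colored points are members (blue in B16, orange in B16PD1, green in R499), gray points are other cells, black rings mark cells with Tyrobp or Lyz2 detected, and the numbers at the top are members of retained cells. The scores rise without a gap at the line, and B16PD1_002 holds 5 of the 7 cells above 6.

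Scores formed a continuous upper tail. The last 3 cells inside the limit scored 2.52, 2.52, and 2.53, and the first 3 outside it 2.51, 2.49, and 2.49, so the limit separates a range of 1 score and not a distinct class of cells. The median was 3.30 in members, with quartiles of 2.79 and 4.36 and a highest value of 8.17, and 1.09 in the other cells. Of the 12 cells with a score above 5, 7 came from B16PD1_002, 2 from B16_007, and 1 each from B16PD1_000, R499_015, and R499_016. By number of score genes detected, 10 members had 3, 27 had 4, 12 had 5, 13 had 6, 9 had 7, and 5 had all 8. Among the other cells 91 had none, 130 had 1, 111 had 2, 84 had 3, 14 had 4, and 1 had 5. The genes were loosely linked from cell to cell. With tumor and genes detected removed, the Pearson r between 2 score genes had a median of 0.170 over the 28 pairs and 507 cells, from 0.00864 for Ifit2 and Isg15 to 0.357 for Ifit3 and Oasl2. The r of a gene with the mean of the other 7 was lowest for Ifit2 (0.0967) and highest for Oasl2 (0.474). The cells of a tumor share their libraries, so these values are descriptions.

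Levels of the score genes in members followed from the choice of cells and are given without a test. Bst2 was the most abundant, with 74 of 76 members detected against 258 of 431 other cells. Its mean log2(TPM + 1) in members was 8.73 in B16_007, 7.31 in B16_008, 8.25 in B16PD1_000, 7.98 in B16PD1_002, 7.25 in R499_015, and 8.18 in R499_016, and 5.79, 3.61, 4.21, 4.25, 5.03, and 3.73 in the other cells. Oas1a was detected in 59 members and 118 others, Rsad2 in 56 and 94, and Ifit3 in 49 and 48. Ifit1 was detected in 41 members and 16 others, Ifit2 in 34 and 105, Isg15 in 34 and 14, and Oasl2 in 32 and 12. Ifit1, Isg15, and Oasl2 were thus rare outside the members (3.71%, 3.25%, and 2.78% of other cells), whereas Ifit2 was found in 24.4% of them. The 2 members in B16_008 had Ifit2, Oas1a, Rsad2, and Bst2, 1 of them had Ifit3, and neither had Ifit1, Isg15, or Oasl2.

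Members also had more genes detected, which is the only measure of depth that TPM leaves, since read numbers are not part of these values. The median over all tumors was 4289.5 genes in members and 3426 in other cells. Over the 5 tumors with at least 3 members the difference of medians was 719 ± 199 genes (SD, n = 5), higher in 5 of 5 (exact sign-flip permutation test, two-sided, p = 0.0625, and 5 tumors can give no smaller p). The mitochondrial share of TPM differed by 0.306 ± 0.920 percentage points (SD, n = 5, higher in 3 of 5, same exact test, p = 0.4375). The tests below therefore hold the log2 number of genes detected in the fit. The label melanoma was checked against its markers: Tyrp1, Dct, and Pmel were detected in all 76 members, Mlana and Tyr in 75, and Sox10 in 56. Of 5 fibroblast markers, Col3a1 and Dcn were each detected in 2 members (2.63%), against 1 and 4 other cells, and Col1a1, Col1a2, and Pdgfra in none. Any of the 5 was detected in 4 members (5.26%) and 6 other cells (1.39%). The endothelial genes Pecam1, Cdh5, and Kdr and the keratinocyte genes Krt5, Krt14, and Krt10 were at 0 in every member. For 1 gene, 0 of 76 cells allows a share of cells with a value above 0 of up to 4.81% (upper bound of the Wilson interval), and a transcript can be present in a cell and be missed.

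Immune transcripts were concentrated in 2 members. Tyrobp, the adaptor of myeloid receptors, or Lyz2, the lysozyme of macrophages, was detected in 5 members (6.58%) and 11 other cells (2.55%). A member of B16_007 had 23 of 43 immune markers with 6142 TPM of Tyrobp, 7772 of Lyz2, 5668 of C1qb, 986 of Tyrp1, and 1372 of Dct. A member of B16PD1_002 had 17 of 43 with 6609 TPM of Tyrobp, 9867 of Lyz2, 2353 of Tyrp1, and 2096 of Dct. Both carried myeloid and pigment transcripts in 1 well, and doublets were not called. The other 74 members had at most 3 immune markers and the other retained cells at most 5, with a median of 0 in both. The summed level of the 43 markers, as log2(TPM + 1), ranged from 0 to 208 in members and from 0 to 22.3 in other cells, 17 of the markers were at 0 in every member, and Ptprc, which encodes CD45, was detected in 1 member and in no other cell. No well name was shared between tumors and no 2 cells had the same values.

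Genes outside the score were then compared between members and other cells of the same tumor. For each gene and tumor, the difference in log2(TPM + 1) was estimated with log2 of the genes detected as covariate, and limma tested the mean of the 5 tumors with at least 3 members. B16_008, with 2 members, was not in this fit, and its values are given beside the others. The score genes and their near copies were left out of every count, and the other 11251 genes are called tested here. Those left out were still fitted, and the adjustment of p ran over all 11264 retained genes. The choice of cells made the p of the score genes small, which lowered the adjusted p of the other genes. An adjusted p under 0.05 (Benjamini-Hochberg, two-sided) was reached by 6 genes, all higher in members, which is 0.0533% of those tested. Adjusted over the 11251 genes alone, Ifitm3, Trim12a, Ifi47, and Usp18 would stay under 0.05, and Xaf1 and Trim30a would not. No gene was lower by this test (0%). At an unadjusted p under 0.05 there were 420 genes higher (3.73%) and 277 lower (2.46%), and 370 genes were higher in all 5 tumors (3.29%) against 493 lower in all 5 (4.38%).

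Ifitm3 (chromosome 7, 141009586 to 141010770), a membrane protein that blocks virus entry at the endosome, had the lowest p. Its mean log2(TPM + 1) in members was 10.40 in B16_007, 8.78 in B16_008, 10.67 in B16PD1_000, 11.11 in B16PD1_002, 10.75 in R499_015, and 10.54 in R499_016. In the other cells it was 9.19, 6.26, 6.89, 7.26, 8.23, and 7.46 in the same order. Members were higher in every tumor and all 76 had the gene, against 357 of the 431 others. The difference was 2.56 (standard error 0.30, limma adjusted p = 0.00348), with a median of 1657 TPM in members and 439 TPM in other cells.

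Ifi47 (chromosome 11, 49076587 to 49096974), a GTPase induced by interferon gamma that acts on vacuoles of intracellular pathogens, had the largest difference of the 6. Members averaged 4.18 in B16_007, 3.58 in B16PD1_000, 5.73 in B16PD1_002, 3.69 in R499_015, and 3.06 in R499_016, and other cells 1.30, 0.83, 1.31, 1.34, and 1.04. Both members of B16_008 were at 0, where the other cells averaged 0.60. Outside that tumor the ranges did not overlap, and the difference was 2.77 (standard error 0.39, adjusted p = 0.0136). It was detected in 47 members (61.8%) and 79 other cells (18.3%).

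Xaf1 (chromosome 11, 72301629 to 72313733), which opposes the inhibitor of apoptosis XIAP, averaged 3.74 in B16_007, 1.76 in B16_008, 4.49 in B16PD1_000, 6.26 in B16PD1_002, 4.89 in R499_015, and 3.66 in R499_016 in members, and 2.36, 0.69, 1.16, 1.23, 1.90, and 1.33 in others. Its difference of 2.73 (standard error 0.43, adjusted p = 0.0344) was smallest in B16_007 (1.33) and largest in B16PD1_002 (4.59). Usp18 (chromosome 6, 121245906 to 121270917) removes Isg15 from proteins and blocks signaling at the type I receptor. It averaged 2.49 in B16_007, 0 in B16_008, 1.35 in B16PD1_000, 3.95 in B16PD1_002, 2.89 in R499_015, and 1.61 in R499_016 in members, and between 0.14 and 0.47 in the other cells of the 6 tumors. In the 5 tumors fitted the members lay above the others without overlap, and the difference was 2.04 (standard error 0.30, adjusted p = 0.0167).

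Trim30a and Trim12a are members of a family of ring-finger proteins with antiviral roles and lie in 1 cluster on chromosome 7 (104409025 to 104465193 and 104299894 to 104315466). This cluster holds close relatives, so the division of reads among them by the quantification is uncertain. Trim30a averaged 2.51, 1.18, 2.27, 1.84, and 0.97 in the members of B16_007, B16PD1_000, B16PD1_002, R499_015, and R499_016, and 0.34, 0.35, 0.25, 0.16, and 0.29 in the others. It was at 0 in every retained cell of B16_008. The difference was 1.42 (standard error 0.23, adjusted p = 0.0437), and the gene was detected in 32 members (42.1%) and 25 others (5.80%). Trim12a was detected in 14 members (18.4%) and 9 others (2.09%), between 2 and 4 members in each tumor of the fit and none in B16_008, and differed by 0.87 (standard error 0.11, adjusted p = 0.00398). Among the 6 genes the motif was found in the promoters of Ifitm3, Trim30a, and Trim12a and not in those of Ifi47 and Xaf1, and Usp18 was not matched. The stretch of the Trim30a promoter at chr7:104465195-104465254 (minus strand) is shown because its match lies closest before the start among the 6.
Trim30a: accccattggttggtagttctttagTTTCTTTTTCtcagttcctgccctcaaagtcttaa
These 6 genes were higher in members in every alternative in which they were tested, but the number called moved between 0 and 29. None was called with a limit of 20%, with members chosen within each tumor, without the filter on genes, without the trend in limma, or with B16_008 in the fit. Without the cells with Tyrobp or Lyz2, the first 4 and Trim12a were called and Trim30a had an adjusted p of 0.0553. Without B16_007 only Ifitm3 and Trim12a were called, and the counts without each other tumor of the fit were between 3 and 9.

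**Figure D2:**
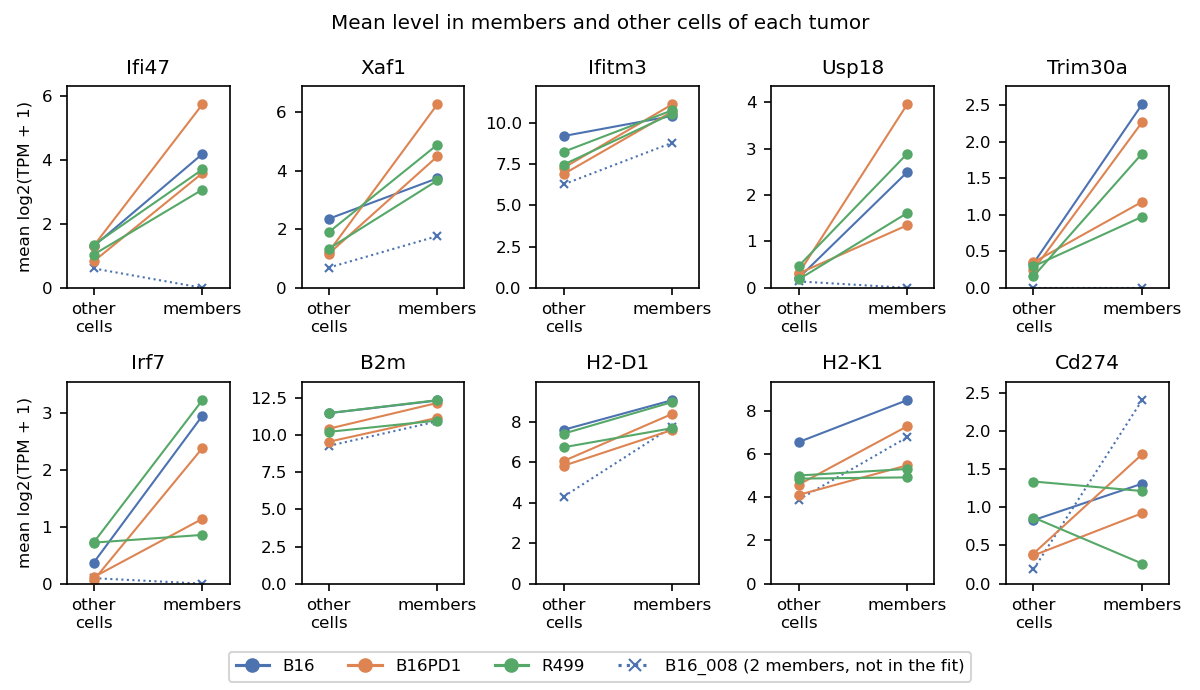
Mean log2(TPM + 1) of 10 genes in the other cells (left) and in the interferon-responding cells (right) of each tumor, on axes that start at 0. Each line is a tumor (blue B16, orange B16PD1, green R499), and the dotted line with crosses is B16_008, which has 2 members and was not in the fit. Ifi47, Xaf1, Ifitm3, Usp18, and Trim30a rise in the 5 tumors of the fit, and the lines of H2-K1 are steep in B16 and B16PD1 and nearly level in R499.

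Held-out genes gave another measure of the same cells. When each score gene was left out in turn and cells were chosen on the other 7, between 61 and 74 of the 76 cells were the same. Oasl2 differed by 1.82 (standard error 0.26, limma adjusted p = 0.0123) and was detected in 30 of the cells so chosen (39.5%) and 14 of the others (3.25%). Ifit1 differed by 2.02 (adjusted p = 0.00599) and Isg15 by 1.63 (adjusted p = 0.00389), each higher in 5 of 5 tumors. These 3 calls became 0 with a limit of 20%, with members chosen within each tumor, without the filter on genes, without the trend in limma, and with B16_008 in the fit. The other 7 score genes, which chose the cells, were part of the adjustment, and this can lower the adjusted p of the gene left out. Without them Ifit1 and Isg15 would still be under 0.05, and for Oasl2 this was not computed. Ifit3 differed by 2.10 over 6 tumors (adjusted p = 0.338), Rsad2 by 1.75 (adjusted p = 0.453), Oas1a by 1.53 (adjusted p = 0.431), and Bst2 by 1.52 (adjusted p = 0.447). Ifit2 differed least, by 0.40 (adjusted p = 0.857), and was detected in 34.2% of the chosen and 26.2% of the other cells.

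Of the antiviral effectors, 4 passed the test as higher in members and the rest did not pass. Of 62 genes listed, 54 passed the filter on detection, 5 of them only through the members, so their count is a description. Xaf1, Ifitm3, Usp18, and Trim30a passed the test and no effector was lower. The calls of Xaf1 and Trim30a depend on the score genes being part of the adjustment. At an unadjusted p under 0.05, 32 were higher (59.3%, against 3.73% of all genes tested) and 0 lower, 53 of the 54 differences were above 0, and their median was 0.61 against -0.00056 over all genes. The most abundant effectors after Ifitm3 were Ifitm2, its neighbor, which differed by 0.28 (adjusted p = 0.863), and the mitochondrial protein Ifi27 with 1.04 (adjusted p = 0.294). Among the genes named after their values were seen, Rtp4, a chaperone of receptors, differed by 2.38 (adjusted p = 0.256), Ifi35 by 2.18 (0.245), and Ube2l6, the conjugating enzyme for Isg15, by 2.05 (0.136). Cmpk2, a mitochondrial nucleotide kinase next to Rsad2, differed by 1.18 (0.134), and Apol9b by 0.88 (0.0649). None of these 7 passed.

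Of the genes that respond mainly to interferon gamma, none of which is in the score, 1 passed the test as higher in members. Of 24 GTPases and chemokines listed, 17 passed the filter, 2 only through the members, and Ifi47 passed the test. At an unadjusted p under 0.05, 14 were higher (82.4%, against 3.73% of all genes tested) and 0 lower, with a median difference of 1.18. Irgm1, a GTPase of autophagy, averaged 6.35, 5.39, 5.31, 7.60, 5.79, and 4.74 in the members of B16_007, B16_008, B16PD1_000, B16PD1_002, R499_015, and R499_016, and 5.51, 2.01, 3.43, 3.30, 4.03, and 3.57 in the others. It was higher in members of every tumor, but the ranges overlapped and the difference of 1.79 had an adjusted p of 0.444. Gbp3, a guanylate-binding protein that attacks pathogen membranes, differed by 1.76 (adjusted p = 0.125) and Gbp2 by 1.05 (0.687), both named after their values were seen. Cxcl10, the chemokine that draws T cells, differed by 1.28 (0.776), below 0 in R499_015 (-1.77) and above 0 in the other 4 tumors. Wars, a tRNA synthetase, differed by -0.068 (0.974). The motif was found in 9 of the 10 promoters matched for this list (90%), in 17 of 41 for the antiviral effectors (41.5%), and in 0 of 11 for the melanocyte list. The Gbp3 promoter at chr3:142559974-142560039 (plus strand) is shown as an example in which 2 matches overlap.
Gbp3: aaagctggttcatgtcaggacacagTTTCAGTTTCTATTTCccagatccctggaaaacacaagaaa

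The size of these differences varied between tumors. In B16PD1_002 the median difference was 1.43 for the antiviral effectors and 3.24 for the GTPases and chemokines, against 0.24 to 0.48 and 0.60 to 0.94 in the other 4 tumors of the fit. The difference in B16PD1_002 was the largest of the 5 for 37 of the 54 effectors and for 16 of the 17 GTPases and chemokines, and for 1999 of all 11251 genes. This tumor also had the highest median score in members (4.07, against 2.78 to 3.69), so its members lay further above the limit. The 12 immune markers tested had a median difference of 0.63 in this tumor, with 10 above 0 and 9 at their largest of the 5 tumors. Of these 12 markers, 5 passed the filter only through the members, so their counts are descriptions. The 6 MHC class II genes had a median of 1.84, with 5 at their largest. Without the cells with Tyrobp or Lyz2, 5 immune markers could be tested and their median in this tumor was 0.20, while it was 1.57 for the effectors, 3.45 for the GTPases and chemokines, and 2.08 for class II. Without the whole tumor, 4 genes were called higher.

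**Figure D3:**
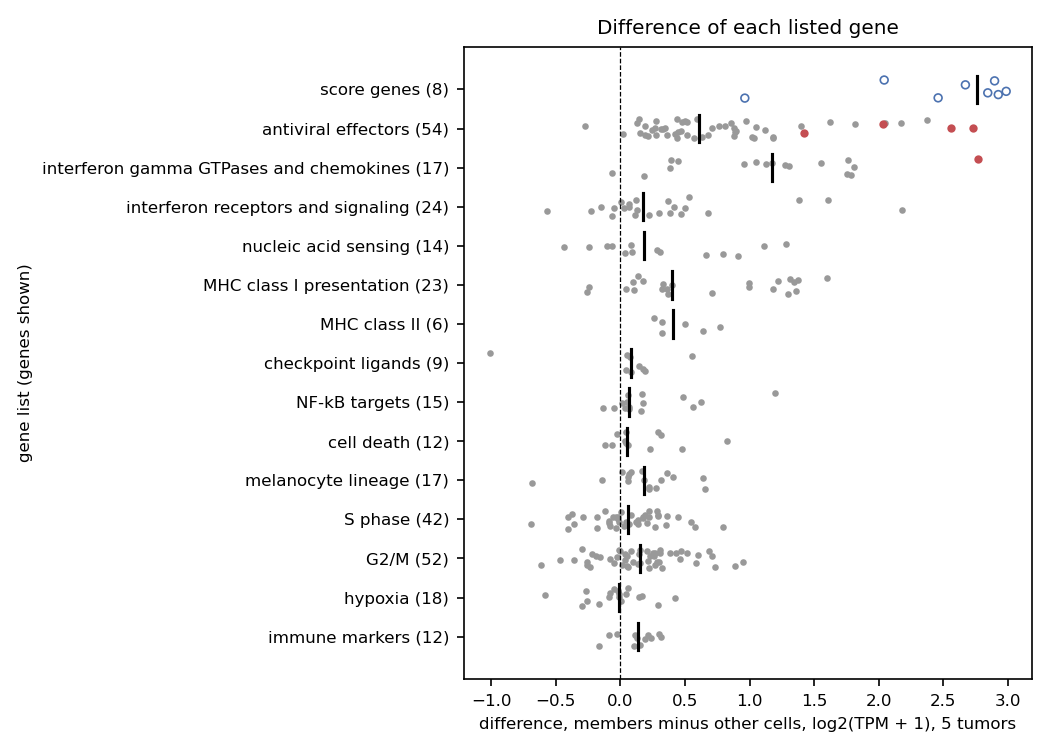
Difference between interferon-responding and other cells for each gene of 15 lists, as the mean over the 5 tumors of the fit on the log2(TPM + 1) scale with genes detected as a covariate. Gray points are genes not called, red points genes with an adjusted p under 0.05, open blue points the score genes, which were not tested, black bars the median of a list, and numbers in parentheses the genes shown. The 2 interferon lists, MHC class I presentation, and MHC class II lie mostly to the right of 0, with medians of 0.61, 1.18, 0.40, and 0.41. The melanocyte, S phase, and hypoxia lists have medians of 0.18, 0.057, and -0.014.

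No interferon receptor or transducer passed the test. Of 27 genes listed, 24 were tested and 5 were higher at an unadjusted p under 0.05 (20.8%, against 3.73% of all genes tested). Irf7, the factor that amplifies type I interferon, was detected in 27 members (35.5%) and 26 other cells (6.03%) and differed by 1.61 (adjusted p = 0.180), with 1 of the 9 members in R499_016. Irf9 differed by 1.38 (0.635) and Stat2 by 0.53 (0.467), the latter in 15 members (19.7%) and 22 others (5.10%). Irf1, which interferon gamma induces, differed by 0.50 (0.872). Of 21 interferon ligand genes, 20 were at 0 in every retained cell and none passed the filter. Among 14 nucleic acid sensors tested, 4 were higher at an unadjusted p under 0.05 (28.6%, against 3.73% of all genes tested) and none passed. Ddx58, which encodes RIG-I, differed by 1.28 (0.675) and Dhx58, its relative, by 1.11 (0.279), both named after their values were seen.

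No gene of MHC class I presentation passed the test. Of 28 genes listed, 23 passed the filter, 2 only through the members, 13 were higher at an unadjusted p under 0.05 (56.5%, against 3.73% of all genes tested) and 0 lower, and the median difference was 0.40. B2m, the invariant light chain, was detected in all 76 members and averaged 12.34, 10.94, 11.17, 12.18, 12.37, and 10.99 in B16_007, B16_008, B16PD1_000, B16PD1_002, R499_015, and R499_016, against 11.49, 9.28, 9.56, 10.44, 11.49, and 10.23 in the others. All 6 tumors had the higher mean in members, but the ranges overlapped, and the difference was 0.997 (standard error 0.19, adjusted p = 0.135). The heavy chain gene H2-D1 averaged 9.08, 7.76, 7.61, 8.40, 8.99, and 7.70 in members and 7.61, 4.31, 5.83, 6.07, 7.42, and 6.75 in the others, a difference of 1.35 (standard error 0.27, adjusted p = 0.141). H2-D1 was detected in all 76 members and 371 of 431 other cells. H2-K1, the other classical heavy chain gene, averaged 8.49, 6.77, 5.47, 7.28, 5.31, and 4.92 in members and 6.55, 3.89, 4.11, 4.58, 5.00, and 4.86 in the others. Its difference was 1.74 in B16_007, 0.91 in B16PD1_000, and 2.61 in B16PD1_002, and -0.058 and -0.23 in R499_015 and R499_016. Over all 5 it was 0.99 (standard error 0.41, adjusted p = 0.776). The heavy chain genes are close copies, so reads can be divided among them with error. Of the genes that cut and load peptides, Psme2, a proteasome activator subunit, differed by 1.60 (0.0649), the immunoproteasome subunits Psmb9, Psmb8, and Psmb10 by 1.38 (0.626), 1.36 (0.531), and 1.22 (0.605), H2-T22 by 1.32 (0.271), and the peptide transporter Tap1 by 0.40 (0.773), all named after their values were seen. The chaperones Canx and Calr, which fold the heavy chain, differed by 0.097 (0.954) and -0.25 (0.879). The B2m promoter at chr2:122147523-122147582 (plus strand) is shown because B2m is the most abundant gene of this list and holds the motif, as 5 of 19 promoters of the list did (26.3%).
B2m: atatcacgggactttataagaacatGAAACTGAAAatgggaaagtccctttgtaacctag

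**Figure D4:**
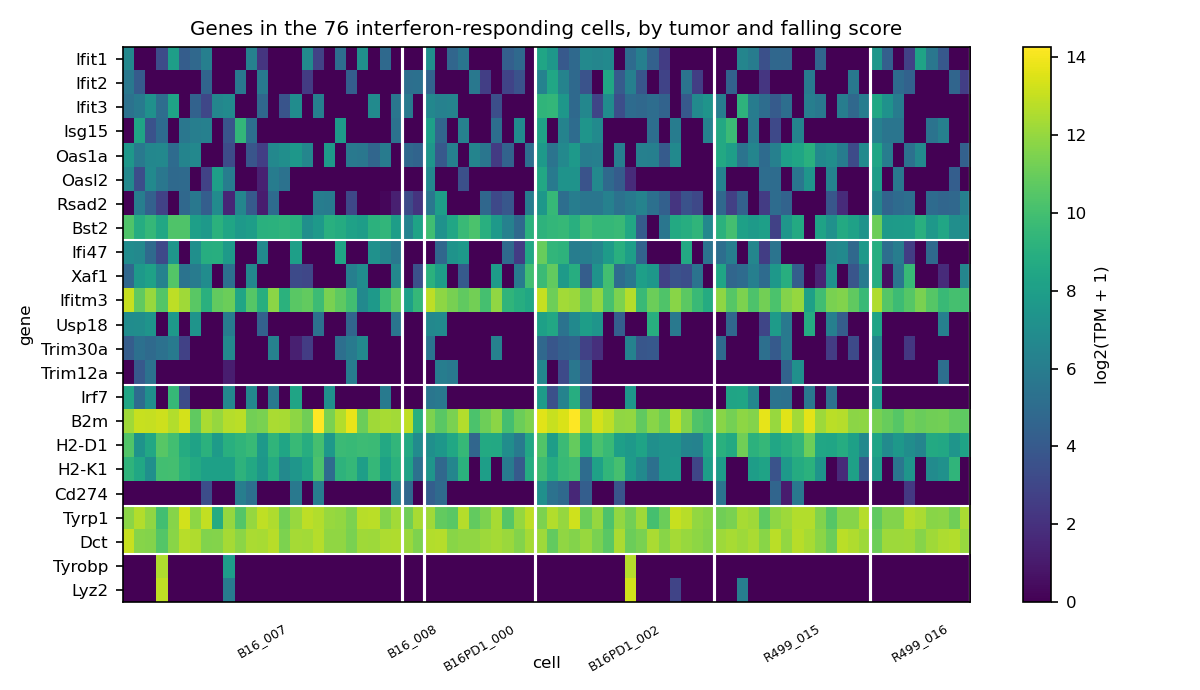
Log2(TPM + 1) of 23 genes in each of the 76 interferon-responding cells, in columns by tumor and falling score within a tumor. From the top, white lines divide the 8 score genes, the 6 genes called higher, 5 genes of signaling, presentation, and the checkpoint, the pigment genes Tyrp1 and Dct, and the myeloid genes Tyrobp and Lyz2. Bst2, Ifitm3, B2m, H2-D1, Tyrp1, and Dct fill nearly every column, the other interferon genes are scattered, and Tyrobp is high in 2 cells.

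Members with more score genes had more of the other interferon genes, and also more genes detected. The 10 members with 3 score genes had a median of 3076.5 genes detected, the 39 with 4 or 5 had 4237, and the 27 with 6 to 8 had 4731. Usp18 was detected in 0 of 10, 13 of 39, and 17 of 27 of these members, and Xaf1 in 4, 25, and 26. Gbp2 averaged 1.08, 0.997, and 5.31 on the log2(TPM + 1) scale, against 0.92 in the other cells, and was detected in 2, 7, and 21 members. H2-K1 averaged 5.99, 6.31, and 7.77 against 4.77 and B2m 11.38, 11.87, and 12.30 against 10.35. Cd274 was detected in 1, 9, and 10 members of the 3 bands. Tyrp1 averaged 12.21, 11.74, and 11.79 against 11.78. Of the 27 members with 6 to 8 score genes, 11 were from B16PD1_002, 9 from B16_007, 3 from each R499 tumor, and 1 from B16PD1_000. What depth and tumor contribute to these bands was not tested.

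MHC class II and checkpoint ligands showed no call. All 6 class II genes tested had a mean difference above 0 (against 49.9% of all genes), with a median of 0.41, but none was higher in every tumor. The median was 1.84 in B16PD1_002 and 0.73 in B16_007. In B16PD1_000, R499_015, and R499_016 it was 0, -0.074, and -0.27, with 2 of the 6 above 0 in each. At an unadjusted p under 0.05, 1 was higher (16.7%, against 3.73% of all genes). H2-DMb1, which edits the bound peptide, differed by 0.77 (adjusted p = 0.827), Cd74, the invariant chain, by 0.50 (0.886), and H2-Aa by 0.64 (0.831). Macrophages express these genes too, and without the cells with Tyrobp or Lyz2 the differences were 0.97 (0.835) for H2-DMb1, 0.64 (0.866) for Cd74, and 0.65 (0.884) for H2-Aa. Cd274, which encodes the ligand PDL1, was detected in 20 members (26.3%) and 65 other cells (15.1%). It averaged 1.31, 2.40, 0.92, 1.69, 1.21, and 0.26 in the members of B16_007, B16_008, B16PD1_000, B16PD1_002, R499_015, and R499_016, and 0.83, 0.19, 0.37, 0.39, 1.34, and 0.86 in the others. Members were thus higher in the B16 and B16PD1 tumors and lower in both R499 tumors, and the difference was 0.19 (standard error 0.28, adjusted p = 0.931). Of 9 checkpoint ligands tested, none was higher at an unadjusted p under 0.05. Cd47, the signal against phagocytosis, differed by 0.55 (0.872), Pvr, a ligand of TIGIT, by 0.076 (0.974), and Tnfsf9, the ligand of 4-1BB, by -1.01 (0.704), the last with an unadjusted p of 0.0133.

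No pigment or lineage gene passed the test. Of 17 melanocyte lineage genes tested, 0 were higher and 1 lower at an unadjusted p under 0.05. The difference was above 0 for 15 of them (88.2%, against 49.9% of all genes), with a median of 0.18. Tyrp1 averaged 11.93, 11.78, 11.64, 11.79, 11.80, and 11.80 in the members of B16_007, B16_008, B16PD1_000, B16PD1_002, R499_015, and R499_016, and 12.03, 12.22, 11.38, 11.71, 11.67, and 11.65 in the others, and differed by 0.081 (standard error 0.10, adjusted p = 0.922). Dct, another melanin enzyme, differed by 0.058 (0.939) and Pmel, the fibril protein of the melanosome, by 0.16 (0.863). Pax3, a factor upstream of Mitf, was the gene lower in members, by -0.68 in the mean (0.773) and in 5 of 5 tumors, and is named after its values were seen. No cell cycle gene passed. At an unadjusted p under 0.05, 1 of 42 S phase genes (2.38%) and 5 of 52 G2/M genes (9.62%) were higher, against 3.73% of all genes. Of the G2/M genes 71.2% had a difference above 0, against 49.9% of all genes, and their median difference was between 0.30 and 0.55 in 4 tumors and -1.002 in B16PD1_000. Of 18 hypoxia and 12 cell death genes none reached that level. Of 15 NF-kB targets 2 did (13.3%), with Ccl5, a chemokine that interferon also induces, at 1.20 (0.652), named after its values were seen. In the cell death list and in the NF-kB list, 1 gene passed the filter only through the members, so these counts are descriptions. Among the lists for other cell types, 12 immune markers could be tested, 5 of which passed the filter only through the members, and Lyz2 differed by 0.32 (0.776), Fcer1g by 0.30 (0.863), and Tyrobp by 0.23 (0.800).

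No gene was lower in members past the threshold. The 5 lowest unadjusted p-values in that direction were those of Slc7a7, an amino acid transporter, at -1.41 (adjusted p = 0.180), Rn7s1, a copy of the signal recognition particle RNA, at -1.65 (0.263), Gstm7, a glutathione transferase, at -0.69 (0.444), Tsc22d3, a gene induced by glucocorticoids, at -1.20 (0.453), and Slc6a15, a neutral amino acid transporter, at -1.16 (0.494). Slc7a7 was lower in 5 of 5 tumors and detected in 9 members (11.8%) and 105 others (24.4%). Rn7s1 belongs to a family of near-identical copies and was lower in 4 of 5 tumors. Slc7a7 and Rn7s1 were called lower when genes in at least 10% of cells were tested.

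Whether the response differed between conditions was tested as the difference of these differences, with 1 B16 tumor, 2 B16PD1 tumors, and 2 R499 tumors in the fit. The lone B16 tumor is assumed to vary like the others. No gene passed in R499 minus B16, in B16PD1 minus B16, or in R499 minus B16PD1 (0% each, lowest limma adjusted p 1, 1, and 0.963), and 241, 222, and 512 genes had an unadjusted p under 0.05 (2.14%, 1.97%, and 4.55%). The smallest p-values were those of Rps24 in R499 minus B16 (-2.27), Mnd1 in B16PD1 minus B16 (-1.93), and Saa3 in R499 minus B16PD1 (1.17). For H2-K1 the value in R499 minus B16PD1 was -1.91 (standard error 0.79, adjusted p = 0.963) and for Cd274 -1.56 (standard error 0.49, adjusted p = 0.963). Neither passed after adjustment over all genes, and 1 or 2 tumors in each condition leave the spread between tumors poorly known.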

How the data were processed

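The 602 cells of 6 tumors were profiled by full-length single-cell RNA sequencing. The authors aligned reads with STAR in 2-pass mode, quantified them with RSEM, and deposited TPM per gene and cell. The submitters' processing notes name the build mm10, and versions are not given in the sources used here. TPM holds no read counts, so depth is unknown and the intervals cover counting error only.

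The members, the gene lists, and the genes named were chosen with earlier results of these data known. Retained genes had TPM above 0 in more than 5 retained cells (11264 genes). Cell columns were assigned to a condition by name. The pseudocount was 1, and differences on the log2(TPM + 1) scale understate the change of low genes. The coefficient of membership in each tumor was fitted with Python 3.11.15, numpy 2.4.6, and pandas 2.3.3, and tested with limma 3.58.1 in R 4.3.3 (eBayes with a trend on mean expression). Adjustment covered every gene fitted, the score genes and near copies among them, in the main fit and in the alternatives. Intervals used scipy 1.17.1 and figures matplotlib 3.10.9. The steps were tested on simulated data. The tumors are the replicates. Positions are from GENCODE M21 (25103 gene IDs matched, 112 did not).

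Genes were named by a rule: the score genes, the genes called (up to 15 higher and 10 lower, or the 5 smallest p in a direction with none), the 3 most abundant genes of the interferon, MHC, checkpoint, and melanocyte lists, Stat2, Irf1, Irf7, Irf9, Cd274, B2m, H2-K1, H2-D1, Tyrobp, Lyz2, and the smallest p between conditions. 1 further gene of the rule is not reported here. The signaling, sensing, and other lists are given by counts, and genes named after their values were seen are marked. The deposited data were also fitted under 22 alternatives, 1 of them, with B16_008 in the fit, chosen after seeing the data.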

Additional observations from a re-analysis of the deposited data

Results flagged for a closer look

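In 7 of the genes named, members and other cells differed in opposite directions in both R499 tumors and both B16PD1 tumors. Opposite directions of the covariate-adjusted difference were found in 11.1% of all genes tested, so their share among the genes named is near the background. Each difference of differences, R499 minus B16PD1, was tested with limma, and none passed (adjusted p = 0.963 in each).

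Cd74 differed by 0.22 and 2.36 in B16PD1_000 and B16PD1_002 and by -0.76 and -0.90 in R499_015 and R499_016, which gave -2.12. H2-K1 gave -1.91, Irf1 -1.67, and Cd274 -1.56. Fcer1g, a myeloid marker, gave -1.30, from 0.77 and 1.18 in B16PD1 and -0.28 and -0.38 in R499, and was detected in 6 members in all. Canx gave 0.71, and Saa3, an acute phase gene detected in 3 members and 13 other cells, gave 1.17. Saa3 was named because it had the smallest p in R499 minus B16PD1.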

How the results depend on the processing

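Up to 22 alternatives were tried for each result. Of 87 results, 79 kept their direction and side of the threshold, or a count within 1.5 times, in most of their alternatives and 8 did not. Many of the 79 are genes not called or counts of 0. The 8 include the main count of genes called higher, kept in 9 of 22. They also include the counts called of antiviral effectors (8 of 22) and of GTPases and chemokines (9 of 22). The rest of the 8 are the calls of Xaf1 and Trim30a and the shares between conditions. The call of Ifitm3 was kept in 17 of 22, Usp18 in 15, Ifi47 in 12, Trim12a in 13 of 21, and Xaf1 and Trim30a in 8 of 22 each, and the shares between conditions kept their direction in 3 to 6 of 12. The number of genes called higher was 6 and became 7 with a limit of 10%, 2 with the score ranked after adjustment for genes detected, 3 with a pseudocount of 10, 5 with cells matched on genes detected or without cells with Tyrobp or Lyz2, 11 with tumors weighted by numbers of cells, 18 higher and 2 lower with genes in at least 10% of cells, 29 without the covariate, and 0 with a limit of 20%, with members chosen within each tumor, without a filter on genes, without the trend, and with tumors of at least 2 members. It was 6 with a pseudocount of 0.1, with cells of over 2000 genes, and with a mitochondrial share under 5%. With single tumors left out it ranged from 2 (without B16_007) to 9 (without R499_016), and the number lower from 0 to 1 (without B16PD1_002). The 3 held-out genes called became 0 with a limit of 20%, within each tumor, without a filter on genes, without the trend, and with tumors of at least 2 members, and ranged from 1 (without R499_015) to 3 without single tumors. The filter of 10% of cells removes the score genes Isg15 and Oasl2 and gave no value for this count. A limit of 10%, a limit of 20%, and a choice within each tumor kept 51, 76, and 60 of the 76 members. The cause of these changes was not tested.

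Shares of members between conditions changed sign. R499 minus B16 was 1.42 percentage points with a limit of 10%, 2.87 with 20%, 4.64 with the adjusted rank, 2.10 without cells with Tyrobp or Lyz2, 0.41 and 2.73 with pseudocounts of 0.1 and 10, and 0.0205 with cells of over 2000 genes. B16PD1 minus B16 was -1.54 with 20%, -1.22 with the adjusted rank, -0.562 with a pseudocount of 0.1, and -1.37 with a mitochondrial share under 5%. R499 minus B16PD1 was 1.08 with 10%, 4.41 with 20%, 5.87 with the adjusted rank, 1.75 without cells with Tyrobp or Lyz2, and 0.972 and 2.20 with pseudocounts of 0.1 and 10. With single tumors left out the shares ranged from -12.8 to 12.3, from -12.6 to 12.6, and from -3.54 to 3.01 in that order, the extremes of the first and second being without B16_007 and without B16_008. The difference in genes detected passed its test with a limit of 20% (914), within each tumor (741), and with tumors of at least 2 members (845), where 6 tumors allow an exact p of 0.03125. The mitochondrial difference was -0.183 with the adjusted rank and -0.0193 with a pseudocount of 10.

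Among genes not called, signs changed for Tyrp1 (-0.014 with 10%, -0.022 with 20%, -0.056 within each tumor, -0.054 with cells of over 2000 genes, and -0.0096 with a mitochondrial share under 5%), Canx (-0.0079 with 20%, -0.053 within each tumor), Ifitm2 (-0.0067 with 20%), Dct (-0.027 within each tumor), Wars (0.12 within each tumor, 0.30 without the covariate, 0.093 matched), and Pvr (-0.24 with tumors of at least 2 members), and, with single tumors left out, the ranges crossed 0 for Wars (-0.36 to 0.22), Canx (-0.12 to 0.18), Cd274 (-0.086 to 0.44), and Pvr (-0.31 to 0.30). Members and other cells were differenced within each tumor, so that comparison is paired by tumor throughout. Between conditions, which hold different mice, no paired analysis was possible because the cell columns carry no replicate numbers from the labels. TPM gives no reads, so the depth, and what it limits, is unknown.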
